A study of Mus musculus with 9 samples.

Results

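The comparison described here sets intraepithelial lymphocytes of the gut labelled CD8 against intraepithelial lymphocytes labelled CD4, with 1 sample of each. The series holds 9 samples, 8 labelled CD8 or CD4 and 1 labelled CD4CD8, measured with a panel of 770 gene names, and covers the gut epithelium, the lamina propria of the small intestine, and lymph nodes of mesenteric and of peripheral sites. A gene entered the comparison when it lay above the floor of the deposited table in at least 1 of the intraepithelial CD8 and CD4 samples, which held for 392 of the 770 genes; the other 378 were at the floor in both. Per the labels, all mice had the B10.RIII background and were wild type or Rag2-/- IRBP-/- R161H, where R161H mice carry a transgenic T cell receptor against a retinal peptide and Rag2 loss removes other T and B cells. The labels describe immunization with a peptide of the retinal protein IRBP in complete adjuvant, and a short or long oral course of ampicillin, metronidazole, neomycin, vancomycin and gentamicin given to wild-type mice beforehand. The labels do not tie either intraepithelial sample to a genotype, an antibiotic arm, an age or a number of animals. They also do not give the gates by which the cells were taken or the type of their T cell receptor.

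Intraepithelial lymphocytes are T cells that lie between the epithelial cells of the gut lining. Those of the CD8 type include cells with the conventional CD8 alpha-beta co-receptor and cells with a CD8 alpha-alpha homodimer, often called natural intraepithelial lymphocytes, which carry NK-type receptors and cytotoxic granules. Those of the CD4 type are effector, helper and regulatory cells that have entered the epithelium, and in the mouse some of them gain the CD8 alpha chain there.

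Values are log2 normalized counts, and a difference is the CD8 value minus the CD4 value. With 1 sample on each side there was no replicate and no test was made. A 95% interval beside a difference comes from the gene's counts in both samples and covers counting error only, not the variation between animals or sorts. In bulk samples such as these, fewer cells of a type and less RNA per cell cannot be told apart. The steps between low values showed that 1 count was worth 1.66 normalized counts in the CD8 sample and 3.94 in the CD4 sample. Summed over genes above the floor this gives 136432 counts in the CD8 sample and 49043 in the CD4 sample, so the CD4 sample was the less precise side. The mean of 17 housekeeping genes was 8.37 in CD8 and 8.33 in CD4.

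The floor of 4.32 hid more genes in CD4 than in CD8. The lowest value above the floor was 5.05 in CD8 and 6.30 in CD4, equal to 20 counts in each, and these were taken as the detection limits. Mr1, Spp1, Usp18 and F2rl1 lay at the limit of the CD8 sample, and 9 genes, among them Cmah, Il23r, Bcl6 and Tbx21, at that of the CD4 sample. Of the 392 genes, 297 were above the floor in both samples, 56 in CD8 only and 39 in CD4 only. Among the 56 seen in CD8 only, 44 lay at or below the CD4 limit, so nothing can be said about their direction. A gene seen in CD8 only had to reach 7.30 for its bound to pass a fold of 2. A gene seen in CD4 only always passed it, because the limits are 1.25 apart. The count of genes lower in CD8 is therefore inflated against the count of genes higher in CD8.

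A fold of 2 or more, measured or as a bound against a limit, was reached by 26 genes that were higher in CD8 (6.63% of 392) and by 81 that were lower (20.7%). Among the 297 genes above the floor in both, 23 were higher (7.74%) and 42 lower (14.1%), and 176 (59.3%) differed by no more than 0.5 on the log2 scale. The median of the 297 differences was -0.10. It was 0.08 with each sample centred on its median and -0.36 with both scaled to the same linear sum, so the sign of a small difference depends on the scaling. With both samples cut at the limit of 6.30, which treats them alike, 26 genes were higher and 53 lower among 340. Counts given below for this cut are to be read against 53 of 340, not against 20.7%. The smallest measured difference past the fold was 1.01 and the largest short of it 0.96 for higher genes, against -1.0 and -0.99 for lower genes.

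**Figure D1:**
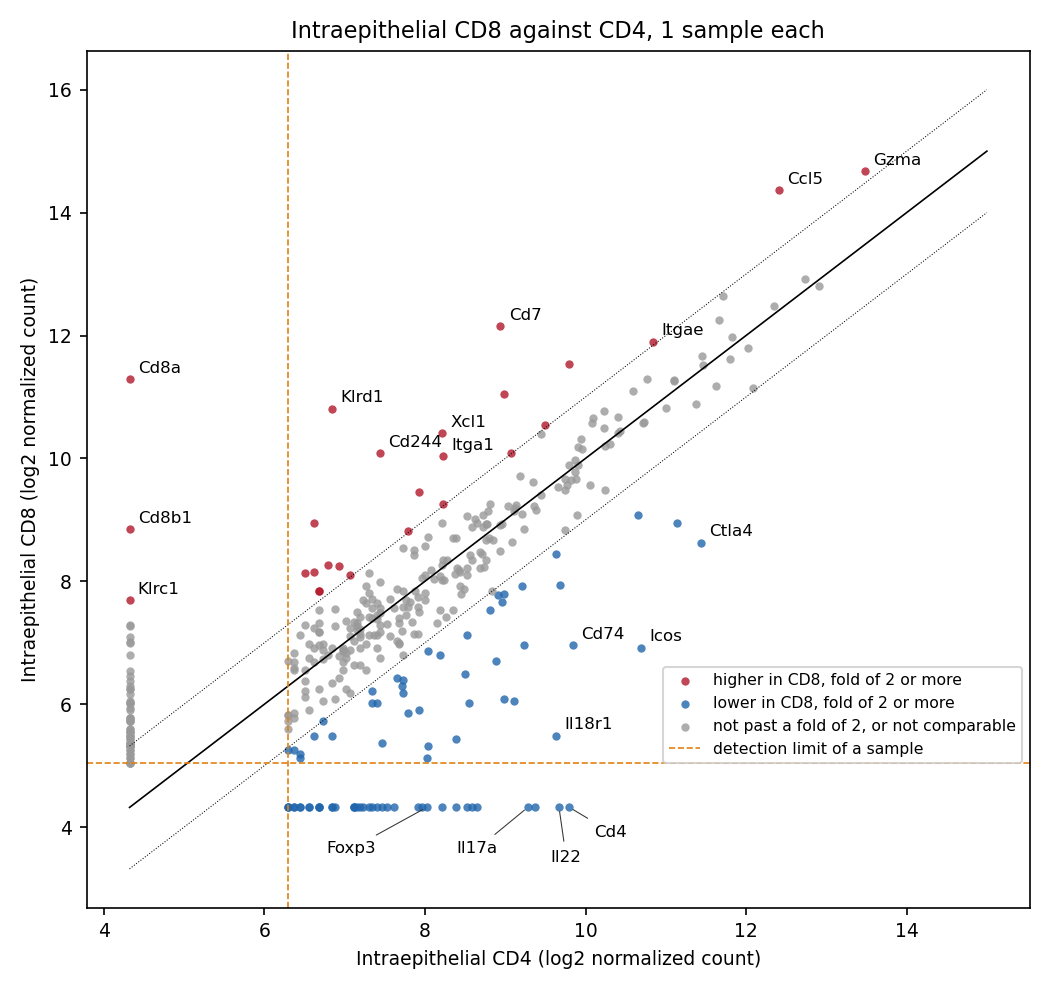
Log2 normalized count of each of the 392 genes in the intraepithelial CD8 sample (vertical axis) against the intraepithelial CD4 sample (horizontal axis), with 1 point for each gene, the line of equal values, dotted lines at a fold of 2 and dashed lines at the detection limits of 5.05 and 6.30. The column of points at the left is at the floor in CD4 and the row at the bottom is at the floor in CD8, where the 39 genes include Cd4, Il22 and Il17a.

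The co-receptor genes matched the labels of both samples. Cd4 was at the floor in CD8 and 9.80 in CD4, at least 26.9-fold lower in CD8. Cd8a, which encodes the CD8 alpha chain, was 11.29 in CD8 and at the floor in CD4, at least 31.8-fold higher in CD8. Cd8b1, the beta chain, was 8.85 in CD8 and at the floor in CD4, at least 5.86-fold higher. Both chains stood on the CD8 side only, but not by the same distance.

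The beta chain value lay farther below the alpha chain value in intraepithelial CD8 than in the CD8 samples of other tissues. Within a sample, Cd8b1 minus Cd8a was -2.44 in intraepithelial CD8, against -0.75 in lamina propria CD8, -0.35 in mesenteric CD8 and -0.44 in peripheral CD8. The levels of different probes cannot be set against each other, but the same pair of probes was read in each sample, so this distance can be compared between samples. Cd8a was higher in intraepithelial CD8 (11.29) than in the lamina propria, mesenteric and peripheral CD8 samples (9.62, 10.26 and 10.09), while Cd8b1 was 8.85 there against 8.87, 9.91 and 9.65. In the intraepithelial sample labelled CD4CD8, Cd8a was 11.50 and Cd4 10.06 while Cd8b1 was at the floor, below a limit of 5.52, which puts Cd8b1 at least 5.98 under Cd8a. With 1 sample in each tissue the difference between tissues was not tested.

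**Figure D2:**
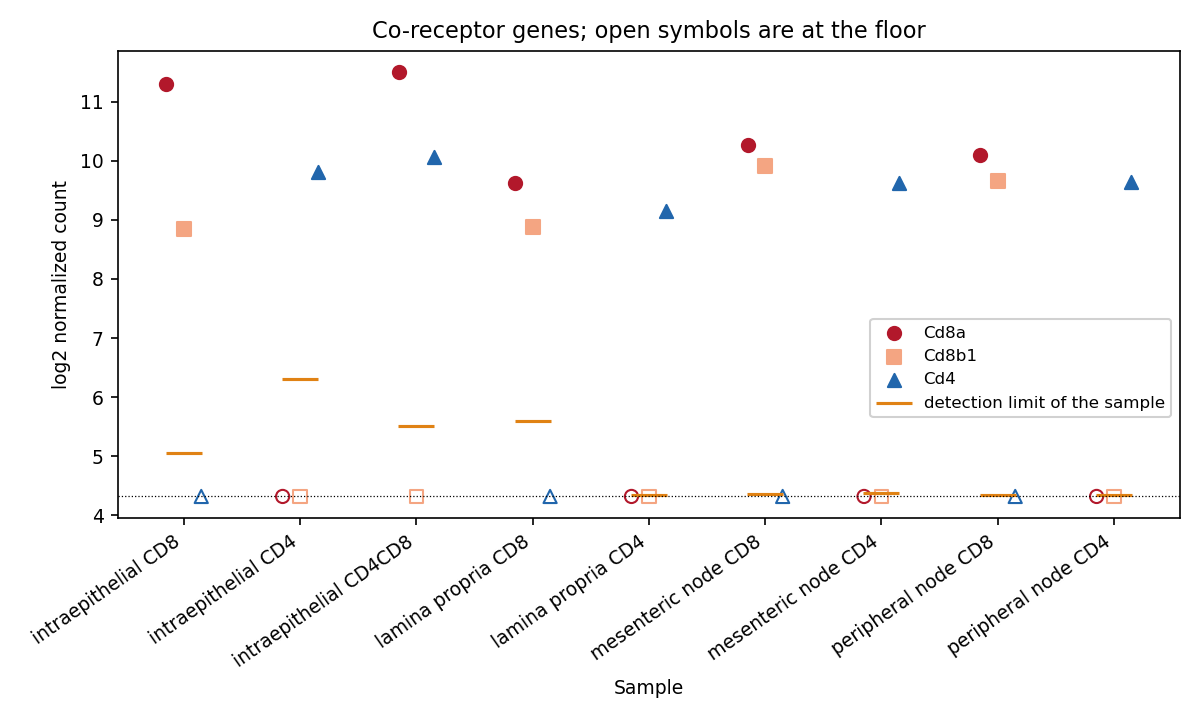
Log2 normalized counts of Cd8a, Cd8b1 and Cd4 in the 9 samples, with the detection limit of each sample as a bar and values at the floor as open symbols. Cd8b1 minus Cd8a is -2.44 in intraepithelial CD8 and between -0.75 and -0.35 in the other CD8 samples.

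NK-type receptors were higher in CD8, level, or not comparable. Of 26 measured members, 14 were at the floor in both samples and 12 were compared; 5 of the 12 were higher past a fold of 2 and none was lower, beside 6.63% and 20.7% of all compared genes. Klrd1, which encodes the CD94 chain of lectin receptors for class I molecules, was 10.81 in CD8 and 6.84 in CD4, a difference of 3.97 (interval 3.44 to 4.56). It was the largest difference in this direction among genes above the floor in both. Klrc1, the NKG2A chain that pairs with CD94 and inhibits, was 7.69 in CD8 and at the floor in CD4, at least 2.62-fold higher. Cd244, a SLAM family receptor that binds CD48, was 10.09 in CD8 and 7.44 in CD4 (difference 2.65, interval 2.21 to 3.13). Cd160, a receptor that binds the herpesvirus entry mediator, was 11.04 in CD8 and 8.99 in CD4 (difference 2.05, interval 1.79 to 2.32).

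Slamf7, another SLAM family receptor, passed the fold narrowly, at 8.82 in CD8 and 7.79 in CD4. Cd96 was level, at 6.80 in CD8 and 6.79 in CD4. The remaining 6 members were seen in CD8 only and none reached the fold as a bound. Klra7, a Ly49 receptor, was 7.29 in CD8, at least 1.99-fold above the CD4 limit. Fcer1g, a signalling chain shared by Fc and NK receptors, was 7.0, at least 1.62-fold above it. Klrk1, the NKG2D receptor, was 6.37, at least 1.05-fold above it, and Klra6 (6.25), Klra5 (5.32) and Klrc2 (5.32) lay below it. Ly49 genes are close paralogs, and whether their probes tell them apart is not given in the sources used here. Klrb1c and Ncr1, which mark NK cells, were at the floor in both samples.

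Cd7, a surface receptor of lymphocytes, had the largest difference after Klrd1 among genes higher in CD8 and measured in both samples: it was 12.15 in CD8 and 8.94 in CD4 (difference 3.21, interval 2.95 to 3.48). Bcl2, which protects cells from apoptosis, was 8.13 in CD8 and 6.5 in CD4 (1.63, interval 1.00 to 2.33). Bcl2l1, which encodes the related protein Bcl-xL, ran the other way, at 5.49 in CD8 and 6.62 in CD4 (-1.13, interval -1.98 to -0.29). Cdh1, E-cadherin, was 8.95 in CD8 and 6.62 in CD4 (2.33, interval 1.74 to 2.98), and its CD4 value rests on 25 counts. Litaf, a regulator of endosomal sorting and of TNF production, was 8.27 in CD8 and 6.79 in CD4 (1.48, interval 0.91 to 2.11).

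Some cytotoxic effector genes were abundant in both samples, and the granzyme and cathepsin W genes lay above 0. Of 9 compared members of that list, 4 were higher past the fold and 1 was lower, beside 6.63% and 20.7% of all compared genes. The list median was 0.79 with bounds included, beside -0.07 over all compared genes. Gzma, a granule protease, was 14.67 in CD8 and 13.48 in CD4 (1.19, interval 1.13 to 1.25), the highest value of each sample. Gzmb, the protease that triggers apoptosis in target cells, was 12.25 in CD8 and 11.66 in CD4 (0.59, interval 0.48 to 0.70), short of a fold of 2, with an interval that did not hold 0. Gzmk was 9.46 in CD8 and 7.93 in CD4 (1.53, interval 1.14 to 1.94).

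Ctsw, a cathepsin of cytotoxic lymphocytes, was 11.54 in CD8 and 9.79 in CD4 (1.75, interval 1.55 to 1.95). Tnfsf10, the death ligand TRAIL, was 9.26 in CD8 and 8.23 in CD4 (1.03). The pore-forming protein gene Prf1 was 7.29 in CD8 and 6.5 in CD4 (0.79, interval 0.11 to 1.51). The death ligand gene Fasl was 7.24 in CD8 and 6.62 in CD4, and its interval of -0.04 to 1.32 held 0. Lamp1, a lysosomal membrane protein, was 8.42 in CD8 and 7.86 in CD4. Ctsl, a lysosomal protease outside the granule set proper, was the lower member, at the floor in CD8 and 6.88 in CD4. Scaling both samples to the same linear sum left 2 members higher past the fold, Gzmk and Ctsw.

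Chemokine genes divided by type. Of 14 in the table, 8 were at the floor in both; of 6 compared, 4 were higher and 2 lower past the fold, beside 6.63% and 20.7% of all compared genes. The higher members were those made by cytotoxic cells. Ccl5, which attracts T cells and monocytes, was 14.36 in CD8 and 12.41 in CD4 (1.95, interval 1.87 to 2.03). Xcl1, which attracts cross-presenting dendritic cells, was 10.41 in CD8 and 8.21 in CD4 (2.20, interval 1.86 to 2.56). Ccl4 was 8.15 in CD8 and 6.62 in CD4, and Ccl3 was 8.25 in CD8 and 6.93 in CD4. The lower members were Ccl20, a ligand of CCR6, at the floor in CD8 and 7.30 in CD4, and the interferon-induced Cxcl10, at 6.43 in CD8 and 7.65 in CD4 (-1.22, interval -1.80 to -0.63).

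Genes of adhesion and tissue residence went in both directions. Of 13 compared, 4 were higher and 1 was lower, beside 6.63% and 20.7% of all compared genes, and 8 were short of the fold. Itga1, an integrin chain through which T cells hold on to collagen, was 10.04 in CD8 and 8.23 in CD4 (1.81, interval 1.47 to 2.18). Itgae, the CD103 chain that binds E-cadherin, was 11.90 in CD8 and 10.84 in CD4 (1.06, interval 0.92 to 1.21). Amica1, named Jaml in current annotation and a junctional adhesion molecule of epithelial T cells, was 10.55 in CD8 and 9.49 in CD4 (1.06). Cd160 is also on this list. Itgal, the LFA-1 chain that binds ICAM molecules, was 9.08 in CD8 and 10.65 in CD4 (-1.57, interval -1.79 to -1.36), while Itgb2, its partner chain, was 8.88 in CD8 and 8.58 in CD4. The gut homing receptor gene Ccr9 was 10.42 in CD8 and 10.41 in CD4, with an interval of -0.17 to 0.20. That interval covers counting error at the deposited scaling only, and the sign of so small a difference changes with the scaling. With the same linear sum, Itgae and Amica1 were short of the fold.

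Genes of the T cell receptor complex were mostly short of the fold: 12 of 14 compared, beside 285 of all 392 compared genes. The CD3 chain genes lay above 0, Cd3g at 12.64 in CD8 and 11.71 in CD4 (0.93, interval 0.82 to 1.04), Cd3e at 11.30 in CD8 and 10.77 in CD4, and Cd3d at 11.09 in CD8 and 10.59 in CD4. Cd247, the zeta chain, ran the other way, at 8.83 in CD8 and 9.75 in CD4 (-0.92, interval -1.19 to -0.66). Fcer1g, named above, encodes a chain that can take the place of zeta in the receptor complex. Txk, a kinase of the Tec family, was the member higher past the fold, at 7.84 in CD8 and 6.68 in CD4 (1.16, short of the fold with the same linear sum). Cd5, which dampens receptor signals, was the member lower past it, at 8.44 in CD8 and 9.63 in CD4 (-1.19, interval -1.48 to -0.90).

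A list of genes known to be low in natural intraepithelial lymphocytes gave 2 of 8 members lower past the fold, Cd5 and Cd28, and none higher, near the 20.7% of all compared genes that were lower, with a median of -0.22. Cd28, the costimulatory receptor for CD80 and CD86, was at the floor in CD8 and 6.56 in CD4, at least 2.85-fold lower; this bound does not pass the fold when both samples are cut at 6.30, which leaves 1 of the 8 lower. Cd2 was 6.09 in CD8 and 6.88 in CD4 (-0.79, interval -1.51 to -0.07). Thy1, another of these genes, was 10.58 in CD8 and 10.08 in CD4, above rather than below. Tcf7, Cd27 and Cd6 differed by no more than 0.25.

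**Figure D3:**
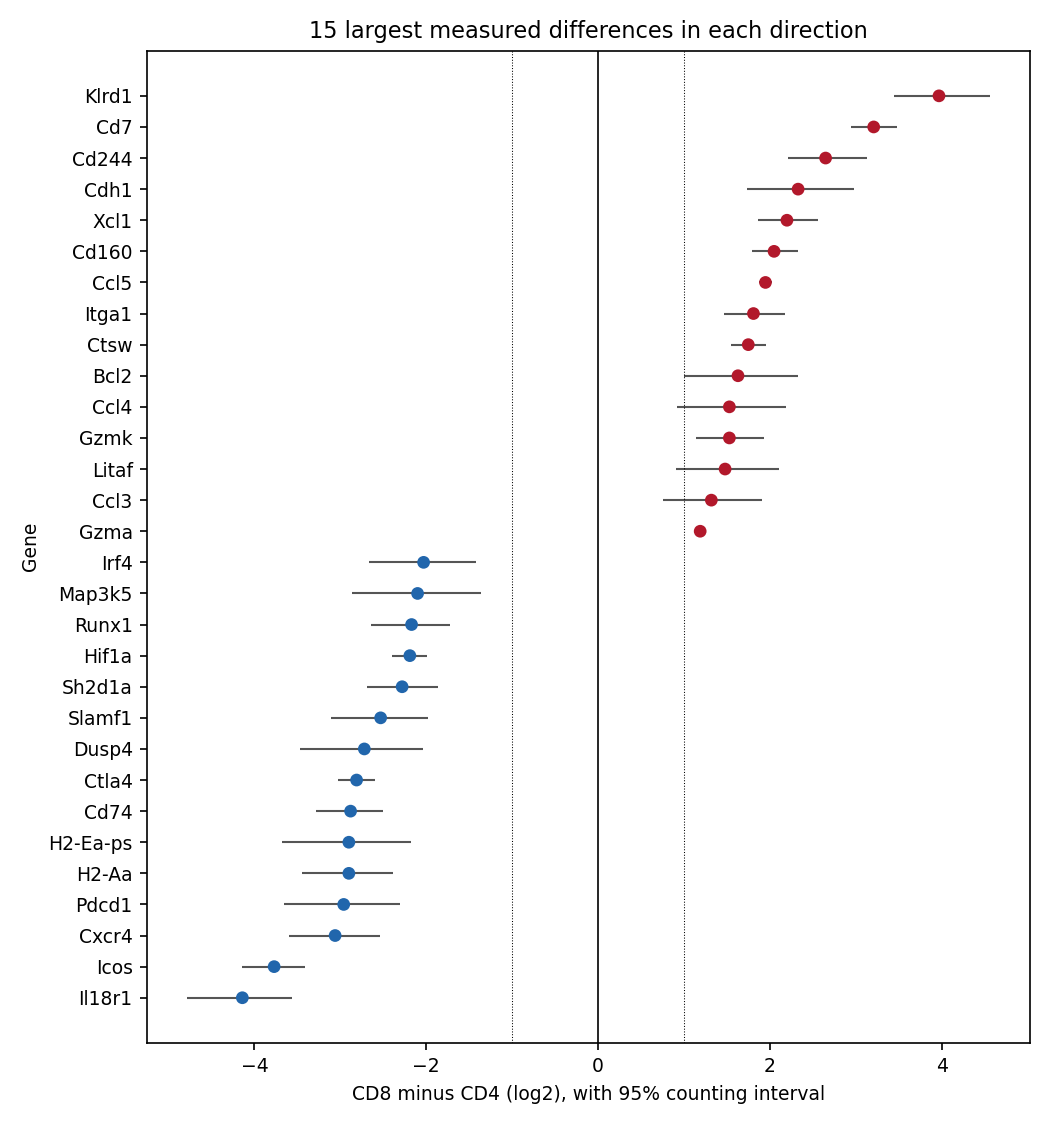
CD8 minus CD4 difference on the log2 scale for the 15 genes with the largest measured difference in each direction, with 95% counting intervals and dotted lines at a fold of 2. Klrd1 at 3.97 and Il18r1 at -4.14 mark the ends, and intervals are widest where the counts are few.

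Genes of the Th17 programme were mostly lower in CD8. All 15 members in the table were compared, 13 were lower past the fold and none was higher, beside 20.7% lower over all compared genes; 10 of the 13 were seen in CD4 only and rest on bounds. Il22, a cytokine that acts on epithelial cells, was at the floor in CD8 and 9.67 in CD4, at least 24.6-fold lower. Il17a was at the floor in CD8 and 9.28 in CD4, at least 18.8-fold lower, and the related cytokine gene Il17f was at the floor in CD8 and 6.84 in CD4, at least 3.46-fold lower. Il21, a cytokine of helper cells, was at the floor in CD8 and 8.65 in CD4, at least 12.1-fold lower.

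Regulators and receptors of that programme ran with the cytokines. Rora, a nuclear receptor of Th17 cells, was 7.94 in CD8 and 9.68 in CD4 (-1.74, interval -2.05 to -1.43). Maf was at the floor in CD8 and 8.21 in CD4. Irf4 was 5.90 in CD8 and 7.93 in CD4 (-2.03), and Batf was 7.53 in CD8 and 8.81 in CD4 (-1.28). Ccr6, the receptor for CCL20, was at the floor in CD8 and 7.62 in CD4, and Il1r1, the IL-1 receptor, at the floor in CD8 and 7.53 in CD4. Stat3, which transmits IL-6 and IL-23 signals, was 9.97 in CD8 and 9.87 in CD4 (0.10, interval -0.12 to 0.32). Csf2 (GM-CSF) was seen in CD8 only, at 6.54, at least 1.18-fold above the CD4 limit. With both samples cut at 6.30, 10 members were lower past the fold, as Il17f, Il23r and Il6ra no longer passed.

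The promoters of the Il17a and Il17f genes, which lie close together on chromosome 1, and of Il22 on chromosome 10 are shown because these cytokine genes stood on the CD4 side only. The sequences are from RefSeq on the mouse build GRCm38.p6, 250 bases before to 50 after the annotated start, written 5′ to 3′ along the gene. Capitals mark matches on either strand to AGGTCA, the core of elements bound by Rora and other nuclear receptors, and to TGTGGT, the core of elements bound by Runx factors.
Il17a (chr1:20730655-20730954, plus strand): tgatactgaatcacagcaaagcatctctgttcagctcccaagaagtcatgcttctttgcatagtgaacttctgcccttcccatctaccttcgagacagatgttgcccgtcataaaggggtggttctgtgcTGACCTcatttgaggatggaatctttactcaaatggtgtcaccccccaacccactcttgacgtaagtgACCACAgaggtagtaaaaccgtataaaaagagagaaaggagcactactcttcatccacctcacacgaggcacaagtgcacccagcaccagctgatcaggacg
Il17f (chr1:20784221-20784520, minus strand): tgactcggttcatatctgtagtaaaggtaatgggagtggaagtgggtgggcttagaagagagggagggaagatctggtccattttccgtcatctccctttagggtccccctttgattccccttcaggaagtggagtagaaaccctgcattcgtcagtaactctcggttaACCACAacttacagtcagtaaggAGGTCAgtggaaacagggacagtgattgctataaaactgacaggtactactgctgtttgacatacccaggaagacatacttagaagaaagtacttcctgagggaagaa
Il22 (chr10:118204714-118205013, plus strand): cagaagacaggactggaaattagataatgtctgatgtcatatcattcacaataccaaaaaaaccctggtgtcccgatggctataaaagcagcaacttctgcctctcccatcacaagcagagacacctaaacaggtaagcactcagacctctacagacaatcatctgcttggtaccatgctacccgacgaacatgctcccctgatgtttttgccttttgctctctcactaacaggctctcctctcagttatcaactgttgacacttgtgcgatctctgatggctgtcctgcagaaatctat
The Il17a and Il17f windows each held 1 AGGTCA match, 120 and 58 bases before the start, and 1 TGTGGT match, 52 and 81 bases before it, all without overlap. Of 32851 promoter windows of the same length, 16.3% held AGGTCA and 16.8% held TGTGGT. The Il22 window held neither, and none of the 3 held TTCNNNGAA, the STAT element, which 8.3% of windows held. The letters tataaaa lie shortly before the annotated start in the Il17a and Il17f windows but far before it in the Il22 window. The Il22 window may therefore not be placed like the others, and its lack of matches says little of the Il22 promoter. Runx1, a factor expressed across T cells, was 6.71 in CD8 and 8.88 in CD4 (-2.17, interval -2.64 to -1.73), while Runx3, the factor of the CD8 lineage, was 7.29 in CD8 and 7.44 in CD4 (-0.15, interval -0.68 to 0.40). A match is a description of letters and says nothing of binding in these cells.

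Many regulatory and helper T cell genes were lower in CD8. Of 13 compared regulatory genes, 8 were lower past the fold and none was higher, beside 20.7% lower over all compared genes, with a list median of -1.54. Of the 8, 4 were seen in CD4 only and passed by construction; with both samples cut at 6.30, 7 were lower. Foxp3, the factor that defines regulatory T cells, was at the floor in CD8 and 8.02 in CD4, at least 7.84-fold lower. Ctla4, an inhibitory receptor abundant on regulatory cells, was 8.63 in CD8 and 11.44 in CD4 (-2.81, interval -3.03 to -2.59), so it was lower but still well measured in CD8. Icos, a costimulatory receptor, was 6.92 in CD8 and 10.69 in CD4 (-3.77, interval -4.15 to -3.41). Il10, which encodes a suppressive cytokine, was at the floor in CD8 and 7.15 in CD4, at least 4.29-fold lower, and does not pass the fold when both samples are cut at 6.30.

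Several members of that list did not separate the samples. Ikzf2 (Helios) was 8.02 in CD8 and 8.21 in CD4, Il2rb 10.23 in CD8 and 10.30 in CD4, and Nt5e (CD73) 9.62 in CD8 and 9.35 in CD4. Il2ra (CD25), the high-affinity IL-2 receptor chain, was past the fold, at 6.19 in CD8 and 7.73 in CD4 (-1.54, interval -2.15 to -0.94).

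Of 11 compared ligands and markers of helper cells, 7 were lower and none was higher, beside 20.7% lower over all compared genes, and 5 of the 7 were seen in CD4 only. Cd40lg, by which helper cells stimulate B cells and dendritic cells, was at the floor in CD8 and 9.37 in CD4, at least 19.97-fold lower. Tnfsf11 (RANKL) was at the floor in CD8 and 7.91 in CD4, at least 7.26-fold lower. Cxcr5 and Tnfsf8 were at the floor in CD8 and near the limit in CD4, at 6.84 and 6.68. Ltb, a lymphotoxin chain, was 10.49 in CD8 and 10.23 in CD4. Cut at 6.30, 4 members were lower past the fold.

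The largest measured difference toward CD4 was that of the IL-18 receptor. Il18r1, its ligand-binding chain, was 5.49 in CD8 and 9.63 in CD4 (-4.14, interval -4.78 to -3.56). Il18rap, its accessory chain, was at the floor in CD8 and 7.23 in CD4, at least 4.53-fold lower. Of 11 compared genes of the Th1 and IL-12 pathway, 4 were lower past the fold and none was higher, beside 20.7% lower over all compared genes. Il12rb2, the inducible IL-12 receptor chain, was 7.12 in CD8 and 8.53 in CD4 (-1.41, interval -1.85 to -0.97). Tnf was 5.73 in CD8 and 6.73 in CD4, a difference of -1.0. The effector end of the pathway was closer: Ifng was 7.88 in CD8 and 8.49 in CD4 (-0.61, interval -0.99 to -0.21), Tbx21 was 6.71 in CD8 and 6.30 in CD4, and Stat4 was 7.81 in CD8 and 8.0 in CD4. Cut at 6.30, 2 of 11 members of this list were lower past the fold, Il18r1 and Il12rb2, near the share of all genes at that cut.

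Chemokine receptor genes were lower in CD8 or short of the fold. Of 10 compared, 6 were lower past the fold and none was higher, beside 20.7% lower over all compared genes; 4 of the 6 were seen in CD4 only, and 5 were lower with both samples cut at 6.30. Cxcr4, the receptor for CXCL12, was 6.05 in CD8 and 9.11 in CD4 (-3.06, interval -3.60 to -2.54). Ccr2, a receptor of inflammatory homing, was at the floor in CD8 and 7.96 in CD4, at least 7.52-fold lower, and Ccr4 was at the floor in CD8 and 7.40 in CD4, at least 5.10-fold lower. Cxcr3 was 8.04 in CD8 and 8.11 in CD4, and Cxcr6 was 9.48 in CD8 and 10.24 in CD4.

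Inhibitory receptors stood on both sides, with 2 of 9 compared members higher and 4 lower, beside 6.63% and 20.7% of all compared genes. The higher members were Cd244 and Cd160, which also count among the NK-type receptors. Pdcd1 (PD-1), a brake on receptor signalling, was 5.43 in CD8 and 8.39 in CD4 (-2.96, interval -3.65 to -2.31). Tigit was 6.49 in CD8 and 8.50 in CD4 (-2.01, interval -2.53 to -1.52). Btla was at the floor in CD8 and 7.11 in CD4, a bound that does not pass the fold with both samples cut at 6.30. Lag3 was 7.84 in CD8 and 7.73 in CD4.

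Of 14 compared costimulatory receptors, 6 were lower, and Cd7 was the member that was higher, beside 20.7% and 6.63% of all compared genes. Cut at 6.30, 4 were lower. Besides Icos and Cd28, Tnfrsf4 (OX40) was at the floor in CD8 and 8.39 in CD4, at least 10.1-fold lower. Slamf1 was 6.02 in CD8 and 8.55 in CD4 (-2.53), and Sh2d1a, the adaptor of SLAM receptors, was 6.96 in CD8 and 9.24 in CD4 (-2.28, interval -2.69 to -1.87). Cd48, the ligand of CD244, was 10.18 in CD8 and 9.91 in CD4.

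Signalling genes were mostly short of the fold. Of 20 immediate-early and NF-kB genes, 3 were lower past the fold (Dusp4, Irf4 and Nfkbia) and none was higher, a share below the 20.7% of all compared genes that were lower, with a median of -0.50 over the members measured in both. Dusp4, a phosphatase of MAP kinases, was 5.32 in CD8 and 8.04 in CD4 (-2.72, interval -3.47 to -2.04). Fos was 11.97 in CD8 and 11.82 in CD4 (0.15, interval 0.04 to 0.26), and Jun was 11.80 in CD8 and 12.03 in CD4 (-0.23, interval -0.34 to -0.12). Both differences were small and ran in opposite directions. Tnfaip3, an NF-kB feedback inhibitor, was 11.15 in CD8 and 12.09 in CD4 (-0.94, interval -1.06 to -0.83). Hif1a, the oxygen-sensing factor, was 8.95 in CD8 and 11.14 in CD4 (-2.19, interval -2.40 to -1.99). Ikbkb, a kinase of the NF-kB pathway outside that list, was higher past the fold, at 10.08 in CD8 and 9.07 in CD4 (1.01). Of 17 transcription factors of T cells, 7 were lower and none was higher, beside 20.7% and 6.63% of all compared genes.

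Class I and interferon genes were mostly short of the fold, as were 285 of all 392 compared genes. None of 13 compared class I processing genes passed the fold, with a median of 0.18; Tapbp, a chaperone of class I loading, was the farthest measured member, at 8.95 in CD8 and 8.21 in CD4. Of 22 interferon-response genes, 3 were lower (Irf8, Cxcl10 and Bst2) and none was higher, beside 20.7% and 6.63% of all compared genes. Their median was 0.00. For Irf1, an interferon-induced factor, the difference was 0.27. The other 5 members compared as bounds, Ifit1, Ifit2, Ifit3, Usp18 and Ddx60, were seen in CD8 only, below the CD4 limit. Of 24 cytokine receptor and Jak genes, 6 were lower past the fold (Il18r1, Il18rap, Il12rb2, Il2ra, Il6ra and Il10ra) and none was higher, beside 20.7% lower over all compared genes. With both samples cut at 6.30, 3 of 23 were lower, not above the share of all genes at that cut. The 18 members short of the fold included Il2rg (8.93 in CD8 and 8.77 in CD4), Il7r (8.71 in CD8 and 8.80 in CD4) and Jak1 (10.16 in CD8 and 9.96 in CD4). Of 20 housekeeping genes compared, Alas1 passed the fold, at 5.19 in CD8 and 6.44 in CD4, with 22 counts in each.

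**Figure D4:**
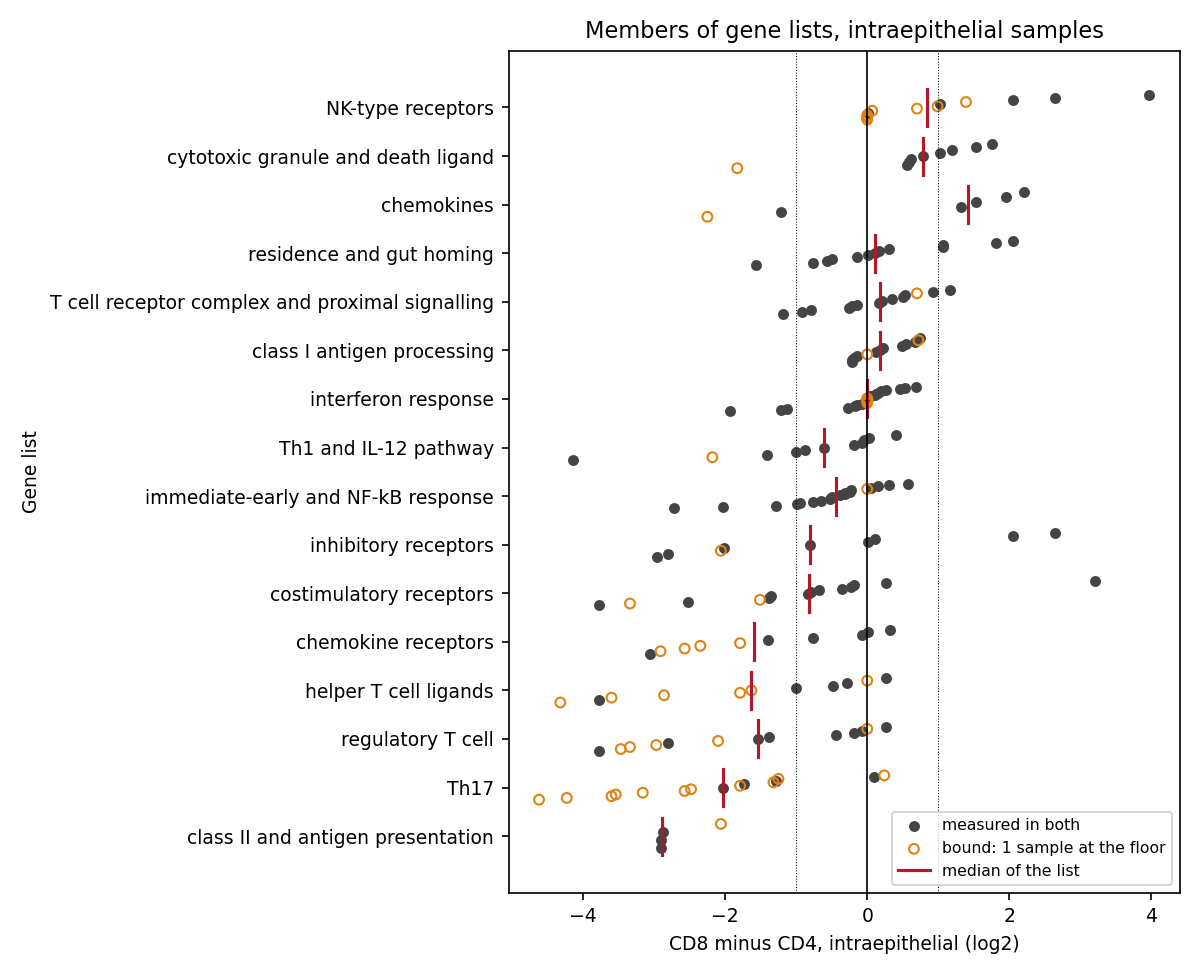
CD8 minus CD4 difference on the log2 scale for each compared member of selected gene lists, with filled points measured in both samples, open points that are bounds because 1 sample was at the floor, and a bar at the list median. NK-type receptors lie at or above 0 and Th17 genes lie below -1 except Stat3 and Csf2.

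Most class II transcripts above the floor were lower in CD8. Of 9 listed class II genes in the table, 5 were at the floor in both. The other 4 were lower in CD8 past the fold, beside 20.7% lower over all compared genes. When both samples were cut at the CD4 detection limit, 3 of the 4 still passed the fold and H2-Ab1 did not. Cd74, the class II invariant chain, was 6.96 in CD8 and 9.84 in CD4 (-2.88, interval -3.28 to -2.50). H2-Aa was 6.09 in CD8 and 8.99 in CD4 (-2.90), H2-Ea-ps was 5.12 in CD8 and 8.02 in CD4 (-2.90), and H2-Ab1 was at the floor in CD8 and 7.11 in CD4. The members above the floor summed to 227 normalized counts in CD8 and 1823 in CD4. Ciita, the class II transactivator, was at the floor in both. H2-Dma, a chaperone chain of class II loading that the list did not hold, was level, at 6.84 in CD8 and 7.02 in CD4 (-0.18, interval -0.80 to 0.46).

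Markers of other cells were few in both samples. Of 31 myeloid markers, 26 were at the floor in both, among them Lyz2, Itgam, Csf1r and Cd14. Cybb, an oxidase subunit of phagocytes, was at the floor in CD8 and 7.47 in CD4, and Cd68 and Ly86 were at the floor in CD8 and 6.44 in CD4. The CD4 values of Cd68 and Ly86 rest on 22 counts each. Neither passed the fold when both samples were cut at the CD4 detection limit, while Cybb still did. Itgax and Spp1 were seen in CD8 only, below the CD4 limit, and the list summed to 76.2 in CD8 and 351 in CD4. The part of antigen-presenting cells in the genes lower in CD8 was not tested.

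Of 15 B cell markers, 13 were at the floor in both, among them Cd79a, Ms4a1 and Pax5. Cd79b, known from the B cell receptor, was 7.27 in CD8 and at the floor in CD4, at least 1.96-fold higher, and Cd37 was 9.25 in CD8 and 8.81 in CD4. Of 24 epithelial and stromal markers, 18 were at the floor in both; Epcam was 6.29 in CD8 and at the floor in CD4, which its limit of 6.30 leaves without a direction. The 6 members above the floor, of which T cells also express Pecam1, Icam2 and Lgals3, summed to 1086 in CD8 and 590 in CD4, and the part of epithelial RNA in the Cdh1 difference was not tested.

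The pairs of CD8 and CD4 samples in the other tissues share no sample with the intraepithelial pair, and their values are set beside it. Of the 26 genes higher in intraepithelial CD8, 17 were past the same fold in the lamina propria, 15 in the mesenteric node and 14 in the peripheral node, and none was past it in the opposite direction. The share of all genes higher past the fold was 5.62% of 480, 8.8% of 409 and 8.15% of 405 in those pairs. Of the 81 genes lower in intraepithelial CD8, 44, 26 and 23 were lower past the fold in the lamina propria, mesenteric and peripheral pairs, where 12.1%, 10% and 9.38% of all genes were. Each pair has its own limits, so these counts are not comparable between tissues. Across the genes measured in both pairs, the intraepithelial differences and those of the lamina propria had a Pearson correlation of 0.71 (281 genes, which share their probes and are not independent), against 0.51 for the mesenteric node (272 genes) and 0.55 for the peripheral node (268 genes). Spearman rank correlations over the same genes were lower and closer together, at 0.58, 0.43 and 0.46 in that order. The genes differ between the 3 correlations.

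Some genes had unlike differences in the 4 pairs. Il18r1, at -4.14 in the intraepithelial pair, was -1.11 in the lamina propria, 0.90 in the mesenteric node and 0.99 in the peripheral node. Its CD8 value was 5.49 in the intraepithelial compartment and 8.25, 9.02 and 9.24 in the other tissues in that order, while its CD4 value was 9.63 against 9.36, 8.12 and 8.25. Cxcr4, at -3.06, was -0.70 in the lamina propria, 0.29 in the mesenteric node and 0.44 in the peripheral node. Here too the intraepithelial CD8 sample was low, at 6.05 against 9.08 to 9.71 in the CD8 samples of the other tissues. Low values were not particular to it: the intraepithelial CD4CD8 sample was at 7.08 for Cxcr4 and 6.75 for Il18r1.

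For Ccl5 both intraepithelial samples stood apart, and the difference was smaller than in the other pairs. It was 1.95 in the intraepithelial pair, 3.47 in the lamina propria, 5.29 in the mesenteric node and 5.96 in the peripheral node. The intraepithelial CD8 sample was at 14.36, against 11.52, 11.39 and 11.49 in the other CD8 samples, and the intraepithelial CD4 sample at 12.41, against 8.05, 6.10 and 5.53 in the other CD4 samples. H2-Aa was -2.90 in the intraepithelial pair and between -0.81 and -0.42 in the others. Klrd1 was higher in CD8 in every pair, by 3.97, 3.24, 2.82 and 2.30. None of these differences between tissues was tested.

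**Figure D5:**
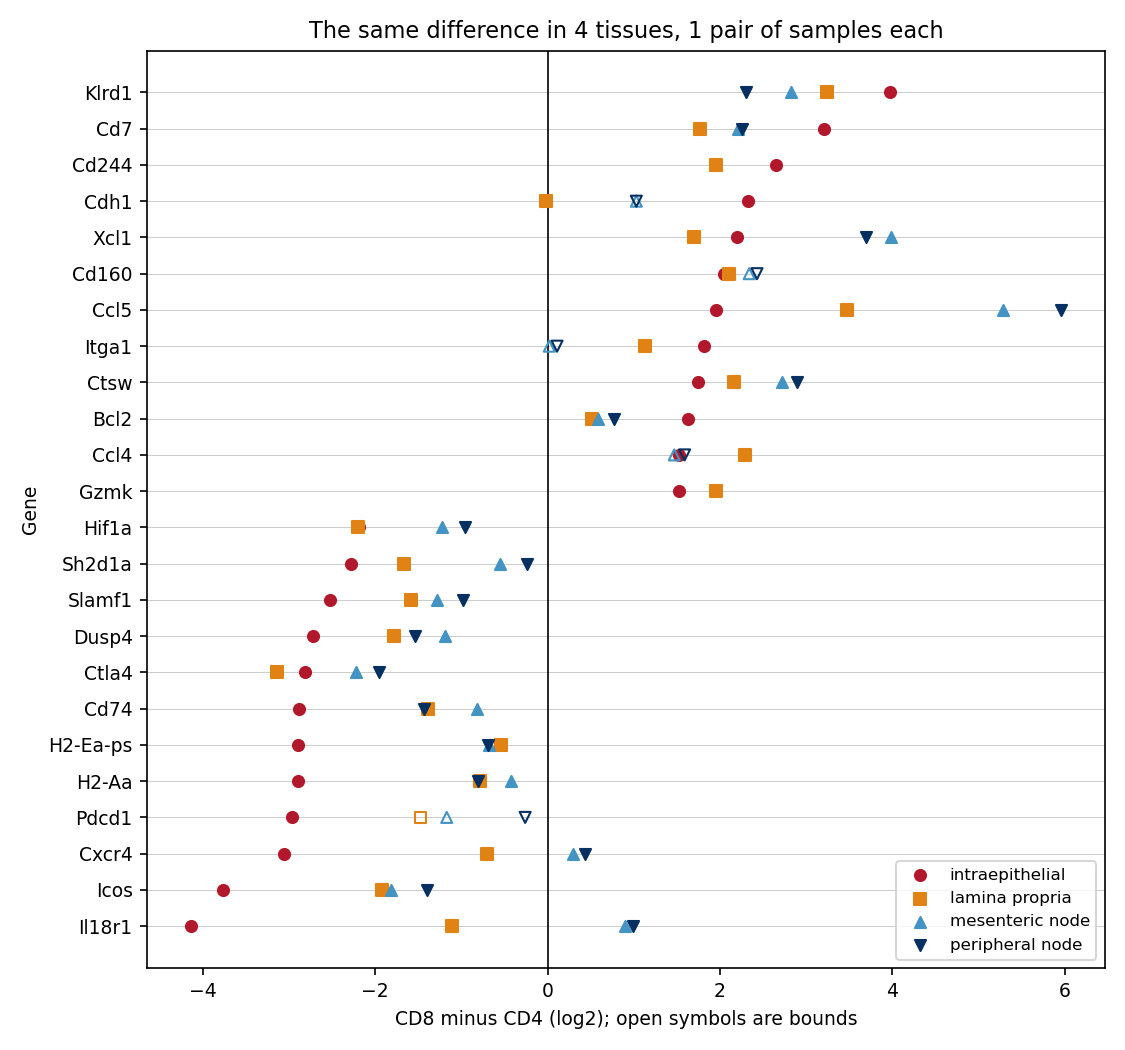
CD8 minus CD4 difference on the log2 scale in the intraepithelial, lamina propria, mesenteric and peripheral pairs, for the 12 genes with the largest measured intraepithelial difference in each direction, with open symbols for bounds and no symbol where both samples were at the floor. Il18r1 and Cxcr4 lie below 0 in the gut pairs and above 0 in the node pairs.

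The intraepithelial sample labelled CD4CD8 lay nearer to CD8 for most of the genes higher in CD8. Of the 23 genes higher in CD8 and measured in all 3 intraepithelial samples, it was nearer to CD8 in 20 and nearer to CD4 in 3, which were Bcl2, Cdh1 and Dpp4. Gzma was 15.76 in it, Ccl5 15.34, Cd7 12.36 and Cd244 10.44, each above both other samples. Of 39 measured genes lower in CD8, it was nearer to CD8 in 19 and to CD4 in 20. Il17a, Il22 and Foxp3 were at the floor in it, as in CD8, below a limit of 5.52, while Cd40lg was 8.01, Rora 9.67 and Cd74 9.68.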

How the data were processed

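The deposited table holds log2 values of normalized probe counts for 770 gene names in 9 samples, as its values show; per the labels' protocols, RNA was isolated on a column and read with biotin capture probes and barcoded reporter probes. The instrument, the scaling and the origin of the floor, equal to 20 normalized counts, are not given in these sources. Samples were grouped by their titles, with 1 sample in each group, so no test was possible. Low values, up to 150, were whole multiples of 1 step within 0.005 (log2) for all 153 such values in CD8 and all 103 in CD4. Chance gives 34.8% and 19.3% for a step fixed beforehand. The steps used were found by a search for the largest such share, so these percentages are not the chance level of the search. Counts recovered in this way gave exact conditional binomial (Clopper-Pearson) 95% intervals of each ratio, which cover counting error only. A value at the floor was set against the sample's lowest value above it to give a bound. Members and the 30 gene lists were chosen with earlier results of these data known. By rule, the genes named come from the co-receptors, the 15 largest measured differences and 12 largest bounds in each direction, and from each list the members past the fold plus up to 4 more, 178 in all; others named were chosen after their values were seen. Of 392 names, 386 were current RefSeq symbols and 5 were synonyms. The lists of Th2, naive, apoptosis, ectoenzyme, transporter and proliferation genes, with 3, 2, 1, 0, 1 and 1 members lower and 0, 0, 1, 1, 0 and 0 higher past the fold, are not described as groups. Python 3.11.15, numpy 2.4.6, pandas 2.3.3, scipy 1.17.1 and matplotlib 3.10.9 were used, and the step search and intervals were tested on simulated data. Values of some genes are counted in the lists but not reported here.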

Additional observations from a re-analysis of the deposited data

Results flagged for a closer look

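Cmah, an enzyme that modifies sialic acid, ran opposite to the other tissues in the intraepithelial pair. It was at the floor in CD8 and 6.30 in CD4, a bound of -1.25 that rests on 20 counts in CD4, against 1.08 in the lamina propria, 0.43 in the mesenteric node and 0.65 in the peripheral node. With both samples cut at 6.30 it no longer passed a fold of 2, since its CD4 value is at that limit. The difference between tissues was not tested.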

How the results depend on the processing

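No paired analysis was possible because each group had 1 sample and the labels give no replicate numbers. The 26 genes higher in CD8 past a fold of 2 became 17 with both samples scaled to the same linear sum, 69 with values at the floor used as measurements, 46 at a fold of 1.5, 8 at a fold of 4, and 66 where the counting interval alone had to exclude equality. The 81 lower genes became 53 with values raised to the higher limit, 42 among genes above the floor in both, and 40 at a fold of 4. The other settings kept both counts within 1.5 times, for example 32 higher and 75 lower with each sample centred on its median. Of the 92 named genes past the fold, 72 were still past it with the common limit and 85 with the same linear sum. None of these 92 changed direction under the scaling and limit settings. Changes of sign among named genes short of the fold were not counted, and small differences such as that of Ccr9 do change sign with the scaling. The median over all measured genes did change sign with the scaling, as did those of the T cell receptor complex (-0.07 to 0.37 over the settings), residence (-0.15 to 0.29), naive, interferon, class I, transporter and housekeeping lists. Depth limits the CD4 side most: a gene below 6.30 there could not be seen, and whether animals or sorts differ cannot be judged from 1 sample.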

Other observations

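Abcb1a, an efflux transporter, was 10.40 in CD8 and 9.44 in CD4, a difference of 0.96, just short of a fold of 2. Dpp4 (CD26), a surface peptidase, was 8.11 in CD8 and 7.07 in CD4, a difference of 1.04 (interval 0.50 to 1.62). Igf2r, a receptor that sorts lysosomal enzymes, was 7.85 in CD8 and 6.68 in CD4. Map3k5, a stress kinase, stood on the other side, at 5.37 in CD8 and 7.47 in CD4, a difference of -2.10.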
